A study of Drosophila melanogaster with 34 samples.

Results

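The zld transcript encodes Zelda, the zinc-finger factor whose continued activity in the early Drosophila embryo the study addressed. It was taken from the deposited count table by its gene identifier, FBgn0259789, as 1 of the 17491 genes listed, and was followed through all 34 libraries. Zelda RNA is loaded into the egg by the mother and translated in the early syncytial embryo, where the nuclei divide in rapid cycles without cell membranes. The protein binds its DNA motif in closed chromatin, makes enhancers and promoters accessible, and is needed for the first broad wave of zygotic transcription. Because zld RNA is both maternally supplied and transcribed by the embryo, its level in an embryo measures neither source alone.

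Each library held poly(A) RNA of a single embryo collected 30 minutes into nuclear cycle 14 (NC14), the long interphase in which the nuclei become enclosed by membranes. All embryos carried His2AvRFP, a red fluorescent histone used for staging. Wild-type embryos carried no other modification named in the labels, and CRY2-ZLD embryos also carried Zelda fused to CRY2, a plant photoreceptor domain that clusters under blue light. Both genotypes were exposed to 488 nm light in 4 windows of nuclear cycles: NC10-14, NC10-12, NC13-14 and NC14. A further group of CRY2-ZLD embryos stayed without light, and no unlit wild-type group was analysed here. The light acts on the fusion protein, so the RNA level described here is not a measure of how much active protein an embryo had. The 9 groups held 4 embryos each, except the NC10-14 groups of both genotypes with 3 each. The labels number the embryos of both NC10-14 groups 1, 2 and 4, and these numbers are kept. The labels do not say whether the embryos of a group shared parents.

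In assembly dm6 the gene lies on the minus strand of chromosome X, from base 19766465 to base 19783548, a span of 17084 bases. The count covers its annotated exons, whose merged length is 10.605 kilobases, untranslated regions included. All 7 distinct exons in the count table match Ensembl's gene models on this assembly, where 5 transcripts are listed. The transcripts zld-RA, zld-RB and zld-RG each encode 1596 residues, zld-RD encodes 1373 and zld-RF encodes 1367. The zld-RD transcript alone uses the most distal exon, bases 19766465 to 19769507. The annotated start codon lies at bases 19782284 to 19782286. No other gene in the table overlaps the span (0 genes), so the lack of strand information in the counting does not mix a neighbour's reads into this row. The deposited counts are summed over the gene and do not separate the transcripts. They also do not separate a fused allele from an unmodified one.

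Library totals ran from 4382299 to 41210334 counts, and the lowest was wild type NC13-14 replicate 4, with the next at 13846445. In the library names a running index is shared by NC10-14, NC13-14 and unlit embryos and starts again at 1 for NC10-12 and for NC14. These index series are called library sets here, although the labels do not say how libraries were grouped for preparation or sequencing. A light window and a library set can therefore not be told apart when groups of different sets are compared, while each comparison of genotypes lies within a set. In the first set, replicates 1 and 2 had indices 1 to 10 and the later replicates 11 to 18, and values are also given within these parts. The parts differed in the share of mitochondrial counts, which was 8.63% to 11.3% in the first and 0.994% to 4.57% in the second, and the part of this in the results was not tested. Wild type NC13-14 replicate 4 had 8.53% of its counts in nuclear ribosomal RNA, against at most 0.377% in any other library. An earlier look at these data had judged 5 libraries to stand apart from their groups: wild type NC10-14 replicate 2, wild type NC13-14 replicate 4, wild type NC14 replicate 3, and CRY2-ZLD NC10-12 replicates 3 and 4. The called zld differences that rest on them are given with and without them, as are the NC10-12 counts of called list members. Differences in other single genes, except the noncoding neighbour lncRNA:CR44885, are given with all libraries only. Follicle cell and yolk genes, the markers of a surrounding tissue, summed to 0.219 to 4.46 CPM (counts per 1000000 of the scaled library total) per library, and 7 to 12 of the 13 markers were at 0. His2Av, the histone gene of the staging marker, had group means between 2196 and 2951 CPM.

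The zld RNA was abundant in every embryo. Its counts ran from 3991 to 46252 per library, or 0.0372% to 0.168% of all counts, so the counting error was at most 1.58% and the spread between embryos was set by other sources. On the CPM scale with TMM-scaled library sizes, the lowest embryo had 332 CPM, the median embryo 571 CPM and the highest 1949 CPM, a 5.88-fold range. Ranked per exon length among the 17491 genes, zld stood between place 442 and place 2128. The SD within groups, pooled over the 9 groups, was 0.42 on the log2 scale. Because whole embryos were measured, fewer cells with the RNA and less RNA per cell cannot be told apart.

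The highest group was CRY2-ZLD NC10-12, with 464, 1053, 1949 and 1345 CPM in replicates 1 to 4 and a mean of 1203 ± 618 CPM (SD, n = 4). Replicate 1 of this group was within the wild-type range of the same window, and the other 3 embryos were higher than any of those wild types. CRY2-ZLD NC10-14 followed at 847, 1087 and 976 CPM (mean 970 ± 120, SD, n = 3), with all 3 embryos close together.

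Wild type NC10-14 had 723, 886 and 1010 CPM (mean 873 ± 144, SD, n = 3). Wild type NC13-14 had 503, 798, 944 and 972 CPM (mean 804 ± 215, SD, n = 4), where replicate 1 was the low embryo. CRY2-ZLD NC13-14 ran the other way, with replicate 1 the highest, at 937, 666, 511 and 550 CPM (mean 666 ± 192, SD, n = 4).

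Unlit CRY2-ZLD embryos had 400, 445, 584 and 735 CPM (mean 541 ± 151, SD, n = 4). The remaining 3 groups lay lower still, and their ranges overlapped one another. Wild type NC14 had 461, 406, 574 and 473 CPM (mean 478 ± 69.8, SD, n = 4), and wild type NC10-12 had 482, 422, 488 and 489 CPM (mean 470 ± 32.6, SD, n = 4). CRY2-ZLD NC14 was the lowest group, at 332, 568, 364 and 384 CPM (mean 412 ± 106, SD, n = 4).

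Going down this order, each of the 8 neighbouring pairs of groups overlapped, and each of the 8 gaps between their means was smaller than the larger of the pair's SDs. The order of neighbours is therefore not resolved by these embryos. The spread itself differed between groups in size, from an SD of 32.6 CPM in wild type NC10-12 to 618 CPM in CRY2-ZLD NC10-12, and the equality of these spreads was not tested.

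**Figure D1:**
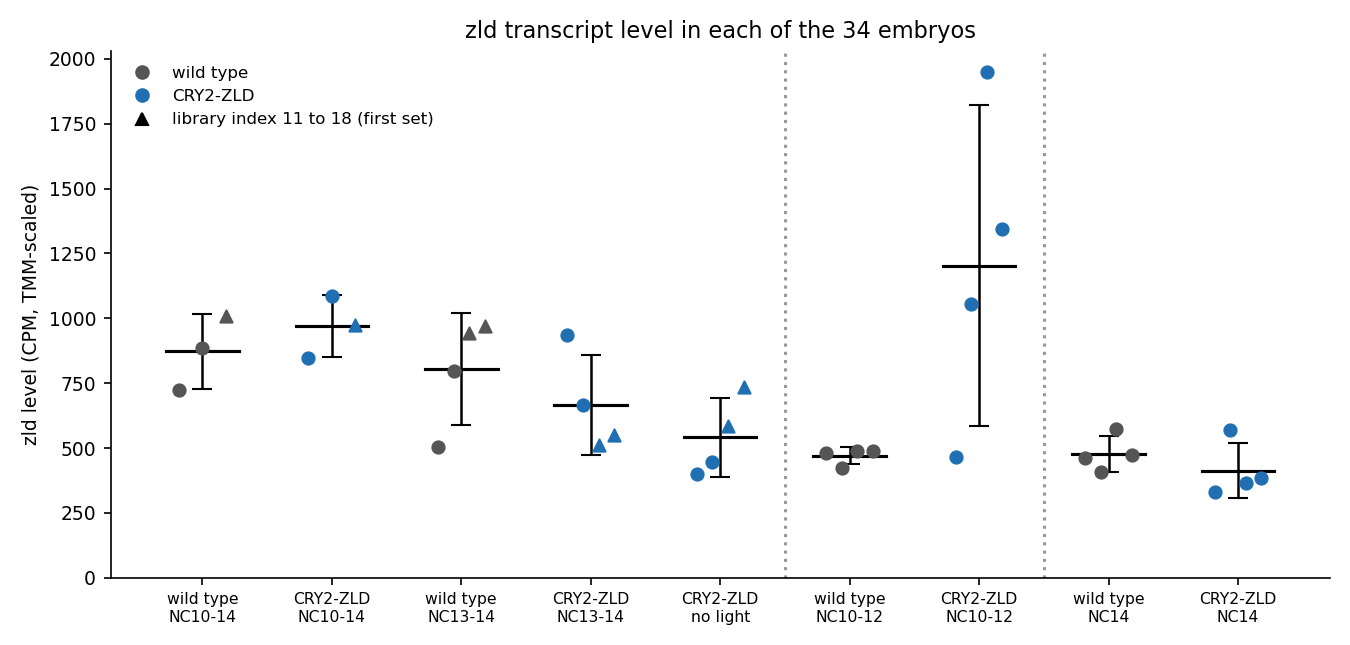
The zld level in CPM (y axis) in each of the 34 embryos of the 9 groups (x axis), in grey for wild type and blue for CRY2-ZLD; bars give the group mean ± SD, triangles mark libraries with index 11 to 18 of the first set, and dotted lines separate library sets. The CRY2-ZLD NC10-12 embryos spread from 464 to 1949 CPM, while their wild types lie between 422 and 489 CPM.

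Comparing CRY2-ZLD with wild type within a window asks whether lit embryos with the fusion had a different zld level from lit embryos without it. With no unlit wild type, carrying the fusion and the light acting on it cannot be told apart in these comparisons. All tests below are edgeR quasi-likelihood tests with Benjamini-Hochberg adjustment over 9519 genes, and a gene was called at an adjusted p under 0.05. During NC10-12 the level was higher in CRY2-ZLD by 1.35 ± 0.28 (SE) on the log2 scale, 2.56-fold (adjusted p = 0.000377 by edgeR). This was the one window of the 4 with a called difference, and zld ranked 858 by p among all genes there, where 33.4% of the genes tested were called. The groups overlapped, because 1 of the 4 CRY2-ZLD embryos was at the wild-type level. Leaving out replicates 3 and 4 of CRY2-ZLD and the other 3 libraries named above brought the difference to 0.68 (adjusted p = 0.0954 by edgeR). An exact two-sided permutation test of these 8 embryos alone, over 70 splits, gave p = 0.114, and the smallest value it allows is 0.0286.

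In the other windows zld differed by less than the spread between embryos. During NC10-14 the difference was 0.15 ± 0.32 (adjusted p = 0.793 by edgeR), where 15.4% of all genes were called. During NC13-14 it was -0.27 ± 0.27 (adjusted p = 0.566 by edgeR), with 17.3% of genes called. During NC14 it was -0.22 ± 0.27 (adjusted p = 0.65 by edgeR), with 17.4% of genes called. The exact permutation tests gave p = 0.5, 0.4 and 0.257 in these 3 windows, and the NC10-14 test cannot go below 0.1.

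The sign at NC13-14 was not the same in both parts of the first set. Among replicates 1 and 2, the CRY2-ZLD embryos were higher by 0.32 on the log2 scale. Among replicates 3 and 4 they were lower, with a difference of -0.85. At NC10-14 the corresponding values were 0.26 and -0.05, the latter from a single embryo of each genotype. With ribosomal protein genes as the scale, the NC13-14 and NC14 differences became 0.02 and 0.29, while the median over all genes became 0.28 and 0.42, so relative to that median zld remained lower in both.

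The difference between genotypes was itself tested between windows. It was larger during NC10-12 than during NC13-14 by 1.63 ± 0.39 on the log2 scale (adjusted p = 0.0228 by edgeR), a test in which 1.46% of genes were called and zld ranked 98. It was also larger during NC10-12 than during NC14 by 1.57 ± 0.39 (adjusted p = 0.0187 by edgeR), where 4.85% of genes were called. With the 5 libraries left out these values were 0.88 (adjusted p = 0.606 by edgeR) and 0.78 (adjusted p = 0.424 by edgeR). Leaving out CRY2-ZLD NC10-12 replicate 3 alone also ended both calls, at 1.29 (adjusted p = 0.0853 by edgeR) and 1.24 (adjusted p = 0.0661 by edgeR).

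NC10-14 contains the nuclear cycles of NC10-12, and its genotype difference minus that of NC10-12 was -1.20 ± 0.42 (adjusted p = 0.0690 by edgeR, 8.76% of genes called). Over the alternative settings, single replicates left out aside, this value ran from -1.19 to -0.46. The other 3 differences between windows were not called. NC10-14 minus NC13-14 was 0.42 ± 0.42 (adjusted p = 0.784 by edgeR, 0.998% called), and NC10-14 minus NC14 was 0.37 ± 0.42 (adjusted p = 0.702 by edgeR, 2.67% called). NC13-14 minus NC14 was -0.06 ± 0.39 (adjusted p = 0.992 by edgeR, 0.168% called). These tests share groups with one another.

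**Figure D2:**
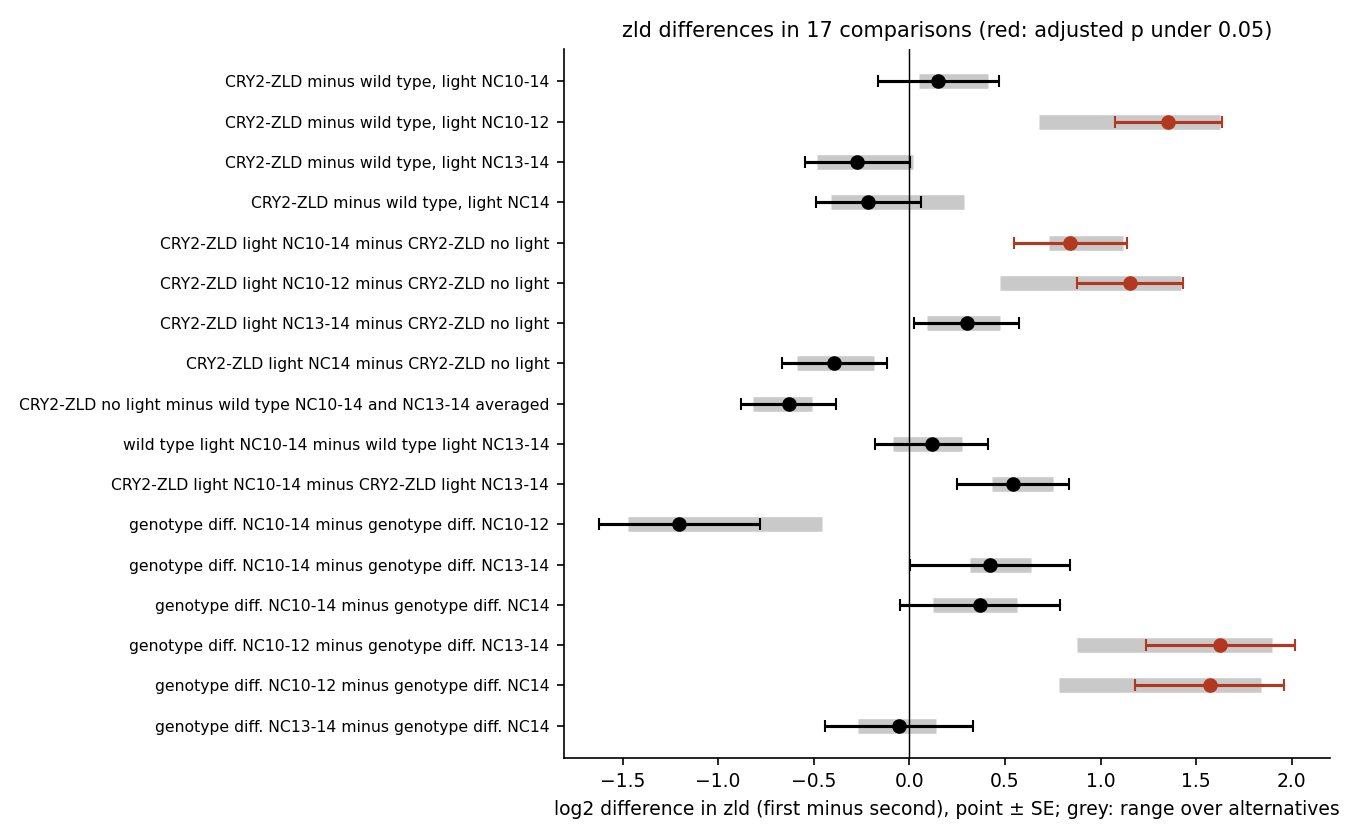
Log2 differences in zld for the 17 comparisons (y axis), each as point ± SE on the x axis, red where the adjusted p by edgeR was under 0.05; grey bands give the range over the alternative settings, replicates left out included. The CRY2-ZLD NC10-12 differences sit to the right of 0 and their bands reach towards 0, down to 0.68 against wild type and 0.47 against unlit embryos.

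Comparing lit with unlit CRY2-ZLD embryos holds the genotype fixed. Embryos lit during NC10-14 had more zld RNA than unlit ones by 0.84 ± 0.29 on the log2 scale, 1.79-fold (adjusted p = 0.0237 by edgeR), in a comparison in which 37.4% of genes were called. The lowest of the 3 lit embryos, at 847 CPM, was above the highest of the 4 unlit ones, at 735 CPM. Maternal RNAs differed between the same groups: smg had 1421 to 3782 CPM in the lit embryos and 75.0 to 130 CPM in the unlit ones, and bcd had 118 to 228 CPM against 0.248 to 2.01 CPM. Their part in the zld difference was not tested. The zld difference was 1.18 within replicates 1 and 2 and 0.57 within the later replicates. The call did not hold without CRY2-ZLD NC10-14 replicate 2 (0.77, adjusted p = 0.0645 by edgeR) or replicate 4 (0.85, adjusted p = 0.0532 by edgeR). It was also lost without unlit replicate 1 (0.73, adjusted p = 0.0674 by edgeR) or replicate 2 (0.76, adjusted p = 0.0663 by edgeR). Wild types lit in the same window had a mean of 873 ± 144 CPM (SD, n = 3), against 970 ± 120 CPM in the lit CRY2-ZLD embryos (SD, n = 3). The level was therefore not particular to embryos with the fusion.

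CRY2-ZLD embryos lit during NC13-14 differed from unlit ones by 0.30 ± 0.27 (adjusted p = 0.566 by edgeR, 13.1% of genes called). Within the parts of the set this value was 0.90 for replicates 1 and 2 and -0.30 for replicates 3 and 4. The other windows carry indices of other library sets than the unlit embryos. There, CRY2-ZLD NC10-12 was higher than unlit by 1.15 ± 0.28 (adjusted p = 0.00218 by edgeR, 28.1% called), and without the 5 libraries by 0.47 (adjusted p = 0.308 by edgeR). CRY2-ZLD NC14 differed from unlit by -0.39 ± 0.27 (adjusted p = 0.566 by edgeR, 3.7% called). All 4 comparisons share the same unlit embryos.

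Unlit CRY2-ZLD embryos had less zld RNA than the lit wild types of their set on average, by -0.63 ± 0.25 on the log2 scale, 0.646-fold, and this missed the threshold (adjusted p = 0.0524 by edgeR) where 31.6% of genes were called. It was -0.75 among replicates 1 and 2 and -0.59 among the later ones. Genotype and light cannot be told apart in this comparison. Leaving out wild type NC10-14 replicate 1, wild type NC13-14 replicate 1 or unlit replicate 4 brought it past the threshold, at -0.69 (adjusted p = 0.0458), -0.72 (adjusted p = 0.0265) and -0.82 (adjusted p = 0.0292) by edgeR.

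Between windows of the same genotype and set, zld was not called. Wild type NC10-14 minus wild type NC13-14 was 0.12 ± 0.30 (adjusted p = 0.831 by edgeR, 18.5% of genes called). CRY2-ZLD NC10-14 minus CRY2-ZLD NC13-14 was 0.54 ± 0.29 (adjusted p = 0.224 by edgeR, 18.6% called). The latter was 0.28 among replicates 1 and 2 and 0.88 among the later replicates.

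The maternal RNA smg, which encodes an RNA-binding protein that directs the clearance of maternal messages, varied with some of the same embryos. In CRY2-ZLD NC10-12 its level was 120, 142, 1688 and 838 CPM in replicates 1 to 4, against 85.7 to 151 CPM in wild type of that window. Replicates 3 and 4 thus had high smg together with high zld, whereas replicate 2 had 1053 CPM of zld and an smg level within the wild-type range. The NC10-14 groups, which had the next highest zld means, had smg levels of 1096 to 1985 CPM in wild type and 1421 to 3782 CPM in CRY2-ZLD. The part of maternal RNA in the zld differences was not tested. Of the 15 maternal RNAs listed, 13 were tested. During NC10-12, 3 of them were called higher and 2 lower in CRY2-ZLD, beside 33.4% of all genes called, with a list median of 0.09 and a median of -0.01 over all genes. The higher ones were smg (2.60 ± 0.53, adjusted p = 0.000312 by edgeR), twe, a Cdc25-type phosphatase (3.09 ± 0.59, adjusted p = 0.00017 by edgeR), and swa, which localizes bcd RNA (1.89 ± 0.51, adjusted p = 0.00434 by edgeR). The lower ones were plu, a regulator of the first embryonic cycles (-2.46 ± 0.35, adjusted p = 4.27e-06 by edgeR), and Hsp83. With the 5 libraries left out, 1 was called higher and 2 lower, with a list median of 0.17 and -0.05 over all genes. The share of all genes called in that fit is not given here. In the other windows at most 1 was called in either direction, where 15.4%, 17.3% and 17.4% of all genes were called. In unlit embryos against the averaged lit wild types 6 were lower and 0 higher, where 15% of all genes were lower. The 2 wild-type groups of that average were unlike, since smg had a mean of 1498 CPM in NC10-14 and 236 CPM in NC13-14, against 90.8 CPM in unlit embryos.

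Factors that act beside Zelda in genome activation were examined as a list of 11 genes, all of them tested. During NC10-12, when zld was called higher in CRY2-ZLD, 5 of the 11 were also called higher and 2 lower, where 33.4% of all genes were called and 16.9% were higher. The list median was 0.67 and that of all genes -0.01. Clamp, a zinc-finger protein that binds GA repeats and opens chromatin, was higher by 1.74 ± 0.24 (adjusted p = 2.56e-06 by edgeR), from 164 ± 34.3 to 550 ± 54.7 CPM (SD, n = 4 each). Stat92E, the transcription factor of the JAK/STAT pathway, was higher by 1.18 ± 0.24 (adjusted p = 0.00028 by edgeR). The acetyltransferase gene nej, the fly CBP, was higher by 1.29 ± 0.29 (adjusted p = 0.000946 by edgeR), and its 4 CRY2-ZLD embryos had 811, 1495, 2734 and 2615 CPM against 518 to 1121 CPM in wild type. Higher means were not particular to this window. In CRY2-ZLD against wild type, Clamp had 489 against 270 CPM during NC13-14 and 243 against 139 CPM during NC14. Stat92E had 593 against 472 CPM and 562 against 289 CPM in the same windows, where zld was not called. During NC10-14 both means were lower in CRY2-ZLD, at 502 against 616 CPM for Clamp and 744 against 784 CPM for Stat92E.

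The anterior determinant bcd, a maternal RNA, was higher by 7.14 ± 1.24 (adjusted p = 5.56e-05 by edgeR). Its level was 9.42, 6.19, 339 and 445 CPM in the 4 CRY2-ZLD embryos and 1.05 to 1.95 CPM in the wild types, so the mean of 200 ± 226 CPM (SD, n = 4) came mainly from replicates 3 and 4. The posterior factor cad was the remaining gene called higher, at 1.48. When the 5 libraries were left out, 3 of the 11 were called higher and 2 lower, with a list median of 0.22 and -0.05 over all genes. The share of all genes called in that fit is not given here.

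The pair called lower during NC10-12, the pair-rule gene opa and the epithelial factor grh, was called lower in all 4 windows. Both encode later-acting factors that open chromatin after Zelda. For grh the differences were -3.75 during NC10-14, -1.55 during NC10-12, -4.92 during NC13-14 and -4.18 during NC14. For opa they were -2.65, -2.46, -4.33 and -3.75 in the same order. In unlit CRY2-ZLD embryos opa had 425 ± 29.3 CPM (SD, n = 4), near the 469 ± 110 CPM of wild type NC13-14 (SD, n = 4) and above the 41.0 ± 44.0 CPM of wild type NC10-14 (SD, n = 3). For grh the same groups had 353 ± 42.4, 250 ± 60.1 and 47.3 ± 28.1 CPM, so the average of the 2 wild types describes neither gene well. Over the list, 2 were lower and 0 higher during NC10-14 (15.4% of all genes called), 3 and 1 during NC13-14 (17.3%), and 2 and 3 during NC14 (17.4%). In unlit embryos against the averaged wild types 4 were lower and 2 higher (31.6% of all genes called). Per exon length, the zld group means were 38.8 to 113 CPM per kilobase, those of Clamp 48.0 to 213 and those of nej 41.2 to 120.

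Early zygotic genes known to need Zelda are its readout in these embryos. The list held 24 genes, all tested, and is not independent of earlier work on such embryos. During NC10-14, 24 were lower in CRY2-ZLD and 0 higher, with a list median of -4.90 on the log2 scale, where 7.58% of all genes were lower. During NC13-14, 22 were lower and 0 higher (median -3.62, 8.94% of all genes lower), and during NC14, 19 and 0 (median -2.74, 9.65% of all genes lower). During NC10-12, 7 were lower and 3 higher (median -0.63, 16.5% of all genes lower). The median over all genes lay between -0.03 and 0.07 in the 4 windows. In the 3 windows where most of the list was lower, zld RNA was not called different, and it was called higher in the window where the fewest were lower. That NC10-12 call of zld did not hold without the 5 libraries or by exact permutation (p = 0.114). The window also has a library set of its own, and a link between the list and the zld level was not tested.

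Named by p, the NC10-12 members were Nrt, a cell adhesion protein (-1.41 ± 0.21, adjusted p = 6.3e-06 by edgeR), the cellularization gene nullo (4.94 ± 0.79, adjusted p = 2.04e-05 by edgeR), sisA, an X-linked sex-determination signal (-2.92 ± 0.56, adjusted p = 0.000181 by edgeR), and Ocho (-1.84 ± 0.36, adjusted p = 0.000224 by edgeR). Without the 5 libraries the counts were 24 lower and 0 higher, 6 and 2, 23 and 0, and 19 and 0 in NC10-14, NC10-12, NC13-14 and NC14. The list medians in that fit were -5.30, -0.53, -3.61 and -2.62, and those of all genes 0.15, -0.05, 0.05 and 0.0007. The share of all genes called in that fit is not given here. With all libraries, in unlit embryos against the averaged wild types 6 were lower and 0 higher (median -0.54), where 15% of all genes were lower. The 2 averaged groups were unlike for members of this list too. For nullo the means were 190 CPM in wild type NC10-14, 5.61 CPM in wild type NC13-14 and 2.43 CPM in unlit embryos. For Ocho they were 46.9, 135 and 83.8 CPM. The 5 tested genes of differentiated later tissues, of 9 listed, gave 0 called in either direction during NC10-12, NC13-14 and NC14 by edgeR. In these windows 33.4%, 17.3% and 17.4% of all genes were called. The list medians there were -0.04, 0.99 and 1.90, against -0.01, 0.07 and -0.03 over all genes, so the lack of calls does not show a lack of shift. During NC10-14, 1 of the 5 tested genes was higher (15.4% of all genes called), with a list median of 0.58 and 0.06 over all genes. In unlit embryos against the averaged wild types 2 were higher and 0 lower (31.6% of all genes called).

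Within groups, the genes whose level followed zld most closely from embryo to embryo were X-linked, as zld is. Likeness was measured as Pearson's r between log2 levels after subtracting each group's mean, over the 34 embryos and 5114 genes with at least 10 CPM. Among the 5 highest were Pp2C1, a PP2C-type phosphatase (r = 0.84), fs(1)h, a BET bromodomain protein (r = 0.81), ATP7, a copper transporter (r = 0.80), and e(y)3, a subunit of a SWI/SNF remodeler (r = 0.80). These correlations are descriptions over embryos that share libraries, scaling and a chromosome, and across all ranked genes r ran from -0.52 to 0.54 between the 5th and 95th percentiles.

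All 5 lie on the X chromosome, which holds 865 or 16.9% of the ranked genes. Of the 20 most similar genes 20 were X-linked, and of the top 100, 73. The median r was 0.29 for X-linked genes and -0.01 for the others. Without the 5 libraries the top 5, 20 and 100 held 4, 19 and 85 X-linked genes. Among the 15 wild-type embryos alone they held 2, 12 and 38, and among the 19 CRY2-ZLD embryos 5, 15 and 59. Single genes differed in how far they held in wild type alone, where r was 0.40 for Pp2C1, 0.11 for fs(1)h, 0.69 for ATP7 and 0.32 for e(y)3.

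**Figure D3:**
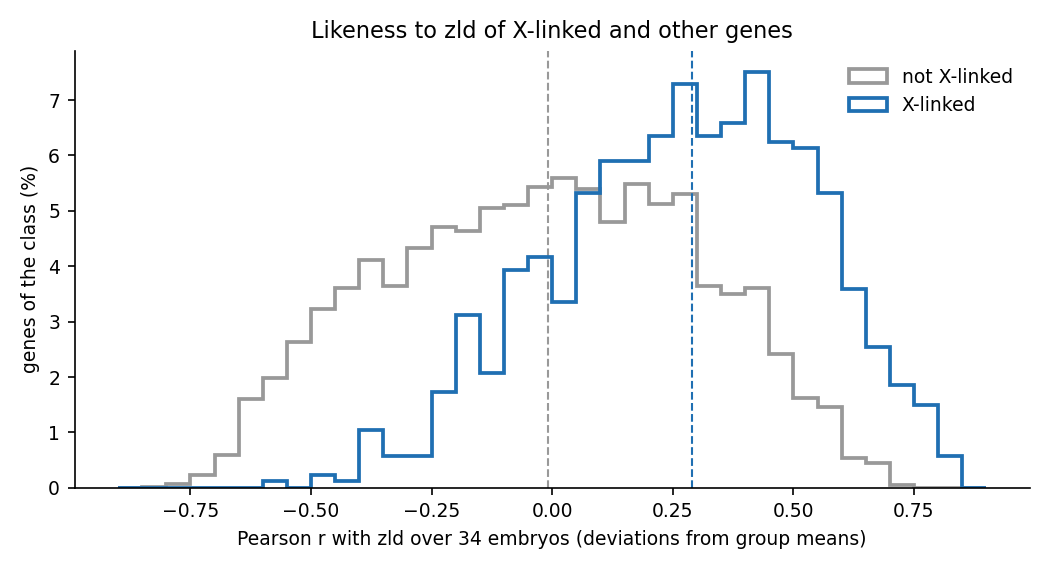
Distribution of Pearson's r with zld within groups over 34 embryos (x axis) for the 865 X-linked genes in blue and the other ranked genes in grey, as a percentage of each class (y axis); dashed lines mark the class medians. The X-linked distribution is shifted to higher values, with medians of 0.29 and -0.01.

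The share of counts from the other X-linked genes, ribosomal RNA left out, ran from 14.2% to 17.8% between embryos. In 8 of the 9 groups the embryo with the lowest zld was also the one with the lowest X-linked share, the exception being wild type NC10-12. The highest values coincided in 5 of the 9 groups. In CRY2-ZLD NC10-12, replicate 1, with 464 CPM of zld, had an X-linked share of 15.5%, and the other 3 embryos had 16.8% to 17.8%. In unlit CRY2-ZLD, replicate 4, with the highest zld at 735 CPM, had the highest share of its group, and the other 3 had 14.6% to 15.4%.

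Sxl, the X-linked master gene of female development, whose early promoter is active in female embryos, was low in 1 embryo of each wild-type group. It was at 53.1 CPM in NC10-14 replicate 1, 123 CPM in NC10-12 replicate 3, 93.1 CPM in NC13-14 replicate 1 and 171 CPM in NC14 replicate 2. In 3 of the 4 groups this embryo also had the lowest zld. Unlit CRY2-ZLD embryos had 96.3, 98.8, 185 and 1071 CPM of Sxl in replicates 1 to 4, and replicate 4 also had their highest zld. In lit CRY2-ZLD embryos Sxl was at most 420 CPM. The labels give no sex, Sxl itself depends on Zelda, and the part of embryo sex in the zld spread was not tested.

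Across the 9 group means, the 5 most similar genes were Bre1, a histone H2B ubiquitin ligase (r = 0.97), sbb, a nuclear corepressor (r = 0.96), MTA1-like, a NuRD component (r = 0.96), CG5800 (r = 0.96) and the zinc-finger gene zf30C (r = 0.95). Of these 1 is X-linked, CG5800. With 9 points, r ran from -0.84 to 0.86 between the 5th and 95th percentiles of all ranked genes, so high values are frequent on this measure. The group means of Bre1 ran from 374 ± 60.4 CPM in CRY2-ZLD NC14 (SD, n = 4) to 594 ± 122 CPM in CRY2-ZLD NC10-12 (SD, n = 4), the same groups that held the lowest and highest zld means.

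Around the zld locus, the nearest 5 tested genes on each side were compared. Next to its 5′ end, 3182 bases away, lies lncRNA:CR44885, a noncoding RNA on the same strand (bases 19786730 to 19788156 of chromosome X). It was present at low level in wild type, with group means of 1.06 to 2.57 CPM, and nearly missing from CRY2-ZLD embryos, with group means of 0.0444 to 0.26 CPM. All 15 wild-type libraries had a count, 609 in sum, while 10 of the 19 CRY2-ZLD libraries had one, 56 in sum. The lowest wild type, at 0.519 CPM, lay just under the highest CRY2-ZLD embryo, at 0.577 CPM.

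The difference in lncRNA:CR44885 was called during NC10-14 (-4.14 ± 1.41, adjusted p = 0.0429 by edgeR), NC10-12 (-3.12 ± 1.11, adjusted p = 0.0299 by edgeR) and NC13-14 (-4.23 ± 1.18, adjusted p = 0.0109 by edgeR). During NC14 it was -2.94 ± 1.15 (adjusted p = 0.0781 by edgeR). It was also low without light, as unlit CRY2-ZLD embryos differed from the lit wild types of their set by -5.16 ± 1.26 (adjusted p = 0.00263 by edgeR). With so few counts the NC10-14 call held in 1 of 6 fits with a library left out, and the NC10-12 call in 5 of 8. The NC10-12 losses came without wild type replicate 1 (-3.03, adjusted p = 0.059), CRY2-ZLD replicate 2 (-2.71, adjusted p = 0.0702) and CRY2-ZLD replicate 4 (-2.77, adjusted p = 0.0867), all by edgeR. Without the 5 libraries these 2 values were -4.13 (adjusted p = 0.06 by edgeR) and -3.01 (adjusted p = 0.171 by edgeR). The NC13-14 and unlit calls held in all 8 and 11 such fits, and without the 5 libraries. Without CRY2-ZLD NC14 replicate 2, which held all 10 counts of its group, the NC14 value was -7.65 (adjusted p = 0.00226 by edgeR), a size set by a group then at 0.

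**Figure D4:**
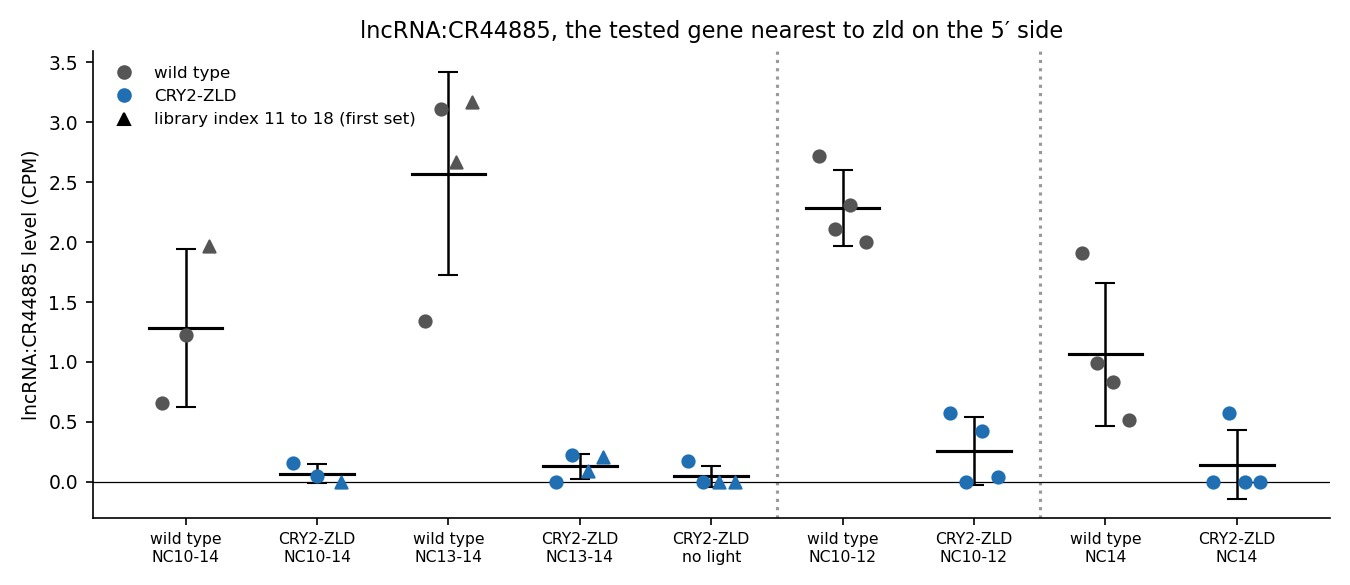
The level of lncRNA:CR44885 in CPM (y axis) in each embryo of the 9 groups (x axis), drawn as in the plot of zld levels with group mean ± SD. CRY2-ZLD embryos lie between 0 and 0.577 CPM with or without light, and wild types start at 0.519 CPM.

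The other 9 neighbours showed no such pattern over windows. The nearest gene on the 3′ side, CG12702, at 1591 bases, was higher in CRY2-ZLD during NC10-12 by 0.67 ± 0.20 (adjusted p = 0.00944 by edgeR), as was Nup205, a nuclear pore subunit (0.84, adjusted p = 0.0232 by edgeR). THADA was lower in that window (-1.51, adjusted p = 0.00322 by edgeR). During NC10-14, Alr (1.24, adjusted p = 0.0333 by edgeR) and pico (1.25, adjusted p = 0.0493 by edgeR) were higher. The adhesion gene parvin was lower in unlit embryos (-1.03, adjusted p = 0.00987 by edgeR). Abcd3, CG18809 and SkpC were not called in these 5 comparisons. Of all genes tested, 33.4% were called during NC10-12, 15.4% during NC10-14 and 31.6% in the unlit comparison. Single calls among these neighbours therefore do not mark out the locus.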

How the data were processed

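The authors deposited 1 table of read counts per gene for the 34 libraries, not normalised, with summed exon length in bases as its other numeric column (other unit), used here only for levels per length. Per the file headers the counts came from featureCounts with the FlyBase r6.20 annotation and without options for strand, read pairs or multi-mapping reads. The submitters' processing notes name Trimmomatic 0.36, HISAT2 2.1.0, featureCounts 1.5.3, DESeq2 1.14.1 and assembly dm6. Symbols for 17360 of 17491 genes came from a name table, and transcripts from Ensembl's annotation on dm6.

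The fit was made with edgeR 4.0.16 under R 4.3.3 (TMM, filterByExpr with minimum count 10, glmQLFit, glmQLFTest), using a single model of 9 group means with 25 residual degrees of freedom. The 9519 genes tested held 99.98% of counts, and Benjamini-Hochberg adjustment ran over them. The edgeR p-values weigh a difference against a spread estimated over all 34 libraries, and refer to these embryos only. That spread is not the one of the groups compared. During NC10-12 the SD of zld was 51.4% of the mean in CRY2-ZLD and 6.93% in wild type. Likeness and permutation tests used log2(CPM + 0.5). DESeq2 1.42.0 and voom in limma 3.58.1 were among the alternatives. The procedure was tested on simulated counts. These had the same dispersion in all groups for a given gene, so they do not cover unequal spreads such as those of zld during NC10-12. No 2 libraries were identical, and any 2 replicates of a group differed by a chi-square of at least 38.6 per degree of freedom.

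The gene, the comparisons and the gene lists were chosen with earlier results of these data known. Named by rule were zld, the 5 most similar genes by each measure (1 of them is not reported here), the 5 tested neighbours on each side, up to 4 members of a list with the smallest p, and His2Av. Chosen after their values were seen were cad, Hsp83, opa and grh beyond that rule, the per-embryo values of smg, Sxl, bcd and nej, the X-linked share, the alternatives for lncRNA:CR44885, and the fit without the 5 libraries.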

Additional observations from a re-analysis of the deposited data

Results flagged for a closer look

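In wild type NC10-12, the lowest embryo, at 421.5 CPM of zld, lay apart from the other 3, which had 482 CPM to 489 CPM. The gap was 0.896 of the group's range, above Dixon's 95% critical value for 4 samples, and about 1 group in 20 passes this value by chance.

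The genotype difference in zld differed between windows by direct test. NC10-12 minus NC13-14 was 1.63 ± 0.39 and NC10-12 minus NC14 was 1.57 ± 0.39 on the log2 scale, both of which were lost without CRY2-ZLD NC10-12 replicates 3 and 4 and the other 3 libraries that stood apart.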

How the results depend on the processing

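Of 367 alternative values for the 17 zld comparisons, 323 kept their direction and side of the threshold, and of 36 alternative group levels, 34 moved by less than 1 SD. Scaling on ribosomal protein genes turned the NC13-14 difference to 0.018 and the NC14 difference to 0.29, weakened the NC10-12 minus NC13-14 and NC10-12 minus NC14 differences to 1.51 (adjusted p = 0.0644) and 1.24 (adjusted p = 0.110) by edgeR, and moved the levels of wild type NC14 to 368 CPM and CRY2-ZLD NC10-14 to 1179 CPM. Under it the median of all genes in the NC10-14, NC10-12, NC13-14 and NC14 genotype comparisons was 0.32, 0.19, 0.28 and 0.42, against 0.06, -0.01, 0.07 and -0.03. Wild type NC10-14 minus NC13-14 became -0.0045 with a minimum mean of 5 CPM and -0.0013 with thinned libraries. The unlit difference from wild type passed the threshold with the 2 parts of the first set as a term (-0.65, adjusted p = 0.0444 by edgeR), with only the libraries compared (-0.59, adjusted p = 0.0365 by edgeR) and with DESeq2 (-0.63, adjusted p = 0.0402). DESeq2 also called NC10-14 minus NC10-12 (-1.16, adjusted p = 0.0494), a value that was as small as -0.46 under another setting. Fits of only the libraries compared lost CRY2-ZLD NC10-12 minus unlit (1.17, adjusted p = 0.0508), NC10-12 minus NC13-14 (1.62, adjusted p = 0.0713) and NC10-12 minus NC14 (1.52, adjusted p = 0.0589) by edgeR, and voom in limma lost NC10-12 minus NC13-14 (1.44, adjusted p = 0.0618). Without the 5 libraries the NC10-12 difference was 0.68, CRY2-ZLD NC10-12 minus unlit 0.47, NC10-12 minus NC13-14 0.88 and NC10-12 minus NC14 0.78. On log2(CPM + 0.5) the NC10-12 difference was 1.18 (p = 0.114 by exact permutation). The cause of these changes was not tested.

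With a replicate block, the unlit difference was -0.66 (adjusted p = 0.0370 by edgeR) and NC13-14 minus NC14 was 0.017. Same-numbered embryos correlated at -0.16 to 0.33 over the 4 windows, with 1 of 3, 2 of 4, 3 of 4 and 0 of 4 pairs over 0.1, so the numbers were not taken to pair embryos. The block changed no other zld call.

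With each replicate left out in turn, the NC10-12 difference ran from 1.02 to 1.62 and stayed called, CRY2-ZLD NC10-14 minus unlit from 0.73 to 1.04 (called in 3 of 7 fits), and the unlit difference from wild type from -0.82 to -0.51. Wild type NC10-14 minus NC13-14 ran from -0.087 to 0.22, NC10-14 minus NC10-12 from -1.47 to -0.87 (called without CRY2-ZLD NC10-12 replicate 1), and NC13-14 minus NC14 from -0.27 to 0.14. NC10-12 minus NC13-14 ran from 1.29 to 1.90 (called in 10 of 16) and NC10-12 minus NC14 from 1.24 to 1.84 (called in 14 of 16). For lncRNA:CR44885, no alternative turned the direction. At 3991 counts or more, depth limited zld little, and lncRNA:CR44885 much.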
